A study of Homo sapiens with 6 samples.

Results

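Kinesins are motor proteins that walk along microtubules, or shorten them, with the energy of ATP. One set of them builds the mitotic spindle, moves chromosomes and completes cytokinesis, and the genes of this set are switched on as cells approach division. Another set carries vesicles, endosomes, mitochondria and ciliary components through the cytoplasm, and some of its members are known mainly from neurons. In melanocytes, kinesins also move endosomes and melanosomes, the pigment organelles.

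The kinesin motor genes were described in 92.1, an established human uveal melanoma line, made from a tumour of pigment-producing cells inside the eye. The LBH589 group held 3 samples treated for 24 h with 0.1 µM LBH589 (panobinostat), a small-molecule inhibitor of histone deacetylases, and the DMSO group held 3 samples given the solvent alone for the same time. The labels describe both groups as the same cell line and name no separate cultures, so p-values reflect how much these samples varied, and this variation could be technical. The measurement was RNA sequencing, deposited as FPKM, which counts sequenced fragments relative to transcript length and library size, for each transcript. All 7 melanocyte lineage markers checked were listed, with a summed level of 718 to 774 FPKM in LBH589 and 2530 to 2670 FPKM in DMSO. PTPRC, VWF and CDH5, markers of leukocytes and endothelium, had no listed transcript. Of the other marker lists checked, 2 of 6 fibroblast markers were listed (summed level 4.24 to 5.55 FPKM in LBH589 and 1.47 to 2.52 FPKM in DMSO), as were 1 of 6 immune markers (6.69 to 12.4 FPKM in LBH589 and 11.6 to 16.8 FPKM in DMSO) and 1 of 4 epithelial markers (0.692 to 1.12 FPKM in LBH589 and 0.19 to 0.452 FPKM in DMSO). The part of these marker differences in the kinesin values was not tested. Summed FPKM was 355148 to 367222 per LBH589 library and 397174 to 422630 per DMSO library. Mitochondrially encoded genes held 35.1 to 37.3% of FPKM in LBH589 and 35.8 to 45.7% in DMSO.

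Members were all genes whose symbol is KIF or KIFC followed by a digit, once the FPKM of all listed transcripts of a gene had been added up. Of 12010 genes, 34 carried such a symbol, and 33 of them were motor genes. The other was KIF1BP, which encodes a protein that binds kinesins and is not a motor. The annotation holds 42 such motor genes, and the 9 without a listed transcript (KIF2B, KIF4B, KIF5A, KIF7, KIF12, KIF17, KIF19, KIF25 and KIF26A) were not analysed here. The 33 genes were sorted by textbook function into 12 mitotic kinesins, 15 transport kinesins and 6 other kinesins, of which several belong to cilia. Transcripts were listed when their mean reached 0.5 FPKM in at least 1 of the groups, so a gene near 0 in one group could be listed only if it was higher in the other. This held for KIF5C, whose transcript had a DMSO mean under 0.5 FPKM, and for KIF2C, KIF18B, KIF24 and KIF26B, whose transcripts each had an LBH589 mean under 0.5 FPKM, so these 5 genes had to differ to be listed.

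Mitotic kinesins fell and transport kinesins moved in both directions. Genes were tested with limma on log2(FPKM + 1) over all 11520 genes whose mean reached 0.5 FPKM, and a gene was called at a Benjamini-Hochberg adjusted p below 0.05. Of the 12 listed mitotic kinesins 12 fell and 0 rose, where 21.6% of all tested genes fell, 27.2% rose and 48.8% were called in either direction. Among these falls, those of KIF2C and KIF18B carry no weight, since both genes had to differ to be listed. Of the 15 listed transport kinesins, 8 rose, 4 fell and 3 did not pass. The rise of KIF5C carries no weight, since it had to differ to be listed. Those of KIF1A and KIF21B rest on transcripts that had to differ to be listed. Of the 6 other kinesins, 2 rose, 3 fell and 1 did not pass. The falls of KIF24 and KIF26B carry no weight, since both had to differ to be listed. The other kinesin that did not pass was KIF2A, which acts at spindle poles and in neurons (limma adjusted p = 0.334). It was placed among the other kinesins by hand, so the fall of all listed mitotic kinesins depends on this placement. The median difference of log2(FPKM + 1), LBH589 minus DMSO, was -2.43 over the mitotic kinesins, 0.71 over the transport kinesins and -0.42 over the other kinesins, beside 0.08 over all tested genes. Making the summed FPKM of the libraries equal moved the median of all tested genes to 0.22 and rises to 65% of all calls, in place of 55.8%. With equal sums 12 mitotic kinesins fell, and transport kinesins gave 8 rises and 3 falls; with the sums of the genes not encoded by mitochondria made equal, the counts of all 3 classes were those first given.

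The summed level of the 12 mitotic kinesins was 24.8, 24.99 and 27.9 FPKM in LBH589 replicates 1 to 3, against 158, 172 and 170.4 FPKM in DMSO replicates 1 to 3. The mean was 6.45 times lower in LBH589, and the groups did not overlap. This sum leaves out KIF2A, which alone was at 59.99 ± 2.78 FPKM in LBH589 and 70.2 ± 13.7 FPKM in DMSO. With KIF2A in it, the sums would differ by a smaller factor. The 15 transport kinesins summed to 257 ± 8.13 FPKM in LBH589 and 281 ± 18.8 FPKM in DMSO (SD, n = 3 each), and the 6 other kinesins to 71.9 ± 0.688 FPKM in LBH589 and 82.3 ± 12.5 FPKM in DMSO. Mitotic kinesins thus made up 7.29 ± 0.52% of all kinesin FPKM in LBH589 and 31.5 ± 0.865% in DMSO. The transport share was 72.5 ± 0.638% in LBH589 and 52.997 ± 0.564% in DMSO. No p is given for these sums, since the members were chosen with results known. In bulk samples, fewer dividing cells and less RNA per cell cannot be told apart.

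**Figure D1:**
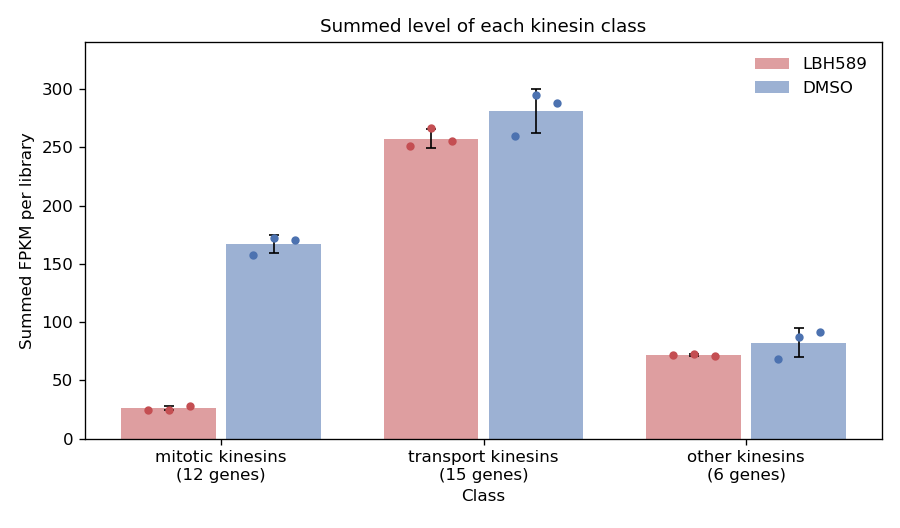
Summed FPKM (y axis) of the mitotic, transport and other kinesins (x axis) per library; bars are means, points are the 3 libraries of LBH589 (left of each pair) and DMSO, and error bars are SD. The mitotic sum was 24.8 to 27.9 FPKM in LBH589 and 158 to 172 FPKM in DMSO, and the transport sum 251 to 267 FPKM in LBH589 and 259.5 to 295 FPKM in DMSO.

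The kinesins that set up the bipolar spindle fell. KIF11, which slides antiparallel microtubules apart and separates the spindle poles, had 2.79, 2.78 and 2.52 FPKM in LBH589 replicates 1 to 3, against 18.7, 21.7 and 24.8 FPKM in DMSO replicates 1 to 3 (log2 difference -2.61, SE 0.13, limma adjusted p = 4.72e-05). KIF15, which helps to hold the poles apart, had 0.825, 0.912 and 0.741 FPKM in LBH589, against 5.96, 7.97 and 7.67 FPKM in DMSO (-2.16, limma adjusted p = 1.16e-04). KIFC1, a minus-end-directed motor that focuses spindle poles, had 3.48, 3.20 and 3.26 FPKM in LBH589, against 25.8, 21.3 and 20.7 FPKM in DMSO (-2.44, limma adjusted p = 4.50e-05). In each of the 3 genes the highest LBH589 library lay below the lowest DMSO library, and KIF11 and KIF15 were both lower by about the same factor, 8.07 and 8.72 times.

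Kinesins that act on chromosomes and on microtubule ends fell by unequal amounts. KIF4A, a chromokinesin that binds condensed chromatin and the spindle midzone, was at 1.79, 1.61 and 1.603 FPKM in LBH589, against 14.0, 13.4 and 13.0 FPKM in DMSO (-2.44, SE 0.11, limma adjusted p = 3.50e-05). KIF4A and KIF4B are near-identical copies, so the split of fragments between them is uncertain. KIF2C, which removes tubulin from microtubule ends at centromeres, was at 0.599, 0.588 and 0.5003 FPKM in LBH589, against 12.1, 9.87 and 10.2 FPKM in DMSO (-2.90, SE 0.13, limma adjusted p = 3.50e-05). KIF22, which pushes chromosome arms away from the poles, was at 3.02, 2.89 and 3.58 FPKM in LBH589, against 15.1, 8.79 and 6.39 FPKM in DMSO (-1.34, limma adjusted p = 0.0104). DMSO replicate 1 stood highest in KIF22, and the groups did not overlap. KIF18A, which dampens chromosome movements at the metaphase plate, showed the smallest fall among the 12, with 3.57, 3.15 and 3.78 FPKM in LBH589, against 7.24, 7.80 and 7.35 FPKM in DMSO (-0.91, limma adjusted p = 0.00124). Its relative KIF18B, which acts on astral microtubules, was listed at 0, 0.07996 and 0.0690 FPKM in LBH589, against 2.97, 1.74 and 2.18 FPKM in DMSO (-1.64, limma adjusted p = 4.86e-04). KIF18A thus kept a mean of 3.503 FPKM in LBH589, whereas KIF18B was at or near 0 in all 3 LBH589 libraries.

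Kinesins of the midzone and of cytokinesis fell as well. KIF20A, which brings the chromosomal passenger complex to the midzone, was at 0.920, 0.542 and 0.198 FPKM in LBH589, against 12.2, 10.8 and 12.1 FPKM in DMSO (-3.06, SE 0.20, limma adjusted p = 9.88e-05), the largest fall on the log2(FPKM + 1) scale among the 33 motor genes. KIF23, the motor of the centralspindlin complex, was at 4.24, 5.74 and 3.79 FPKM in LBH589, against 24.6, 30.3 and 35.6 FPKM in DMSO (-2.48, limma adjusted p = 1.84e-04), and it was the highest mitotic kinesin in both groups. KIF14, a partner of citron kinase in cytokinesis, was at 1.71, 2.13 and 2.37 FPKM in LBH589, against 8.63, 11.98 and 11.5 FPKM in DMSO (-1.93, limma adjusted p = 2.81e-04). KIF20B, which acts at the midbody, was at 1.80, 1.36 and 5.45 FPKM in LBH589, against 10.7, 26.8 and 18.9 FPKM in DMSO (-2.41, SE 0.48, limma adjusted p = 0.00734). In KIF20B, LBH589 replicate 3 stood well above the other LBH589 libraries and still lay below all DMSO libraries. Exons of KIF20A overlap those of BRD8 and CDC23 on the other strand, and the labels do not say that strand was used in counting, so fragments of these genes cannot be told apart there. The same holds for KIF4A with PDZD11, KIF18A with METTL15 and KIF24 with UBAP1. KIF2A shares exon bases with IPO11 on the same strand.

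**Figure D2:**
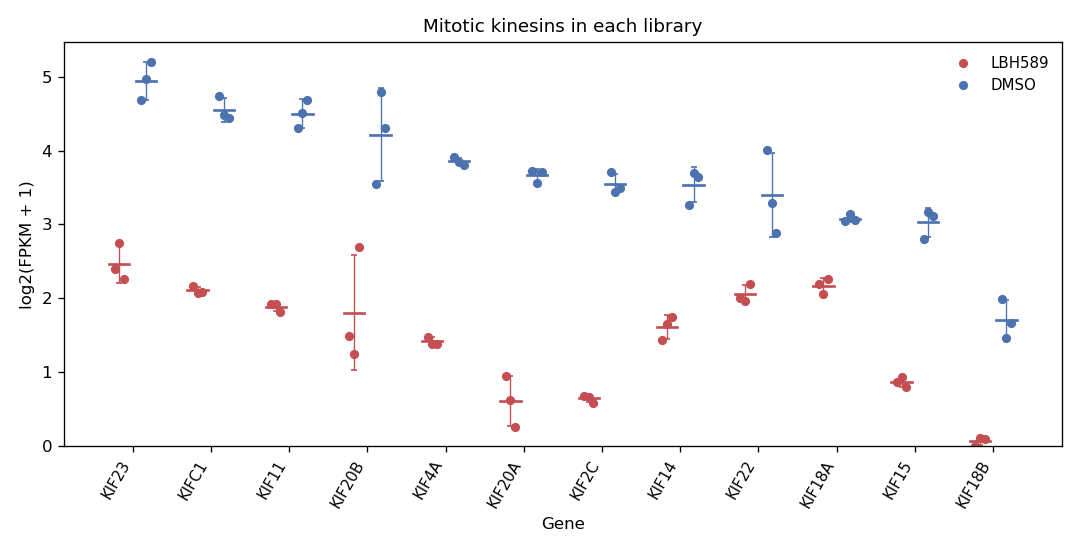
Levels of the 12 mitotic kinesins as log2(FPKM + 1) (y axis), ordered along the x axis by DMSO mean; points are libraries, LBH589 left of DMSO, short lines are means and error bars SD (n = 3). In every one of these 12 genes the LBH589 points lie below the DMSO points, with the widest spread in KIF20B.

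In all 12 of these genes the LBH589 values lay below the DMSO values, where 26.5% of all tested genes showed that order. KIF2C and KIF18B had to differ to be listed, so they add nothing to this count. The 12 falls remained called in each of the fits that left out 1 library. Genes that work with mitotic kinesins fell in the same libraries. Of 23 tested partners and regulators, 21 fell, 0 rose and 2, CKAP5 and NUMA1, did not pass, where 21.6% of all tested genes fell, and the median log2 difference of the list was -2.25. The falls of PLK1, BIRC5 and AURKB, with LBH589 means of 0.196, 0.221 and 0.213 FPKM, carry no weight, since these genes had to differ to be listed. TPX2, which targets KIF11 to the spindle, averaged 9.55 ± 0.543 FPKM in LBH589 and 56.1 ± 3.74 FPKM in DMSO (SD, n = 3 each; limma adjusted p = 2.61e-05). CCNB1, a mitotic cyclin, averaged 5.88 ± 0.691 FPKM in LBH589 and 47.8 ± 4.41 FPKM in DMSO. CEP55, a midbody protein, averaged 2.78 ± 0.282 FPKM in LBH589 and 33.0 ± 4.78 FPKM in DMSO. MKI67, a protein of the surface of mitotic chromosomes and a common marker of proliferating cells, averaged 0.694 ± 0.0355 FPKM in LBH589 and 13.4 ± 2.55 FPKM in DMSO. PLK1, BIRC5, AURKB, CKAP5, NUMA1 and CENPE are named after their values were seen. CKAP5, which speeds microtubule growth, was at 39.7 ± 2.61 FPKM in LBH589 and 36.7 ± 3.69 FPKM in DMSO (limma adjusted p = 0.442). NUMA1, a spindle pole protein, was at 3.92 ± 0.594 FPKM in LBH589 and 6.44 ± 2.28 FPKM in DMSO (limma adjusted p = 0.112). With 1 library left out, 19 to 21 genes of this list fell. CENPE, a centromere kinesin whose symbol the rule does not take, was at 2.51, 3.25 and 6.87 FPKM in LBH589, against 7.53, 20.1 and 10.4 FPKM in DMSO (-1.38, limma adjusted p = 0.0405).

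Genes of late cell cycle are known to carry, near their start, a cell cycle homology region, a short element bound by a repressor complex, and often CCAAT boxes before it. The letters TTTGAA, and the related form TTCGAA, were searched for this element, and the letters CCAAT for the box. The search ran on both strands of RefSeq promoter windows from 250 bases before to 50 bases after a start (build GRCh38.p14). A window was counted once for each motif, and matches of different motifs were allowed to share letters. Windows were found for 12 mitotic, 11 transport and 4 other kinesins. Either form of the element was in 11 of 13 windows of mitotic kinesins (84.6%), in 1 of 16 windows of transport kinesins (6.25%, KIF5B) and in 1 of 6 windows of other kinesins (16.7%, KIF24), beside 16.4% of all 35116 windows. CCAAT was in 10 of 13 windows of mitotic kinesins (76.9%) and 5 of 16 of transport kinesins (31.2%), beside 34.6% of all windows. Both motif kinds together were in 9 of 13 windows of mitotic kinesins (69.2%), beside 6.38% of all windows. These matches are a description and do not show that a site is used.

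The windows of the 3 mitotic kinesins with the smallest adjusted p, and that of KIF5C as the transport kinesin with the smallest adjusted p, are shown to let the motifs be compared. Capitals mark the letters of the motifs, and each window reads 5′ to 3′ on the strand of its gene, with the start after base 250. KIF4A lies at chrX:70289854-70290153, plus strand, KIF2C at chr1:44739587-44739886, plus strand, KIFC1 at chr6:33391573-33391872, plus strand and KIF5C at chr2:148874977-148875276, plus strand. KIF5C has 2 windows, and the one nearest to the start of its listed transcript is printed.
KIF4A: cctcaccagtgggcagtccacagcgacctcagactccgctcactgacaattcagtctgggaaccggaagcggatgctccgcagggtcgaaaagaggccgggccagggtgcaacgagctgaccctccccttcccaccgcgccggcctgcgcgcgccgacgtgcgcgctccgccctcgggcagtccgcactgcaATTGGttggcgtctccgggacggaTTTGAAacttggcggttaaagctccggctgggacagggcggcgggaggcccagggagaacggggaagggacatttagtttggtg
KIF2C: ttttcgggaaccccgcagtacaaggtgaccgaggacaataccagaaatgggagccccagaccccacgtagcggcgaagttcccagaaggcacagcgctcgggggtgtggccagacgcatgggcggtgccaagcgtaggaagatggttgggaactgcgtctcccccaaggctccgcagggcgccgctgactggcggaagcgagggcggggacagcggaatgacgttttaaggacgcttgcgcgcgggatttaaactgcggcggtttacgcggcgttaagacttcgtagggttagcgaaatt
KIFC1: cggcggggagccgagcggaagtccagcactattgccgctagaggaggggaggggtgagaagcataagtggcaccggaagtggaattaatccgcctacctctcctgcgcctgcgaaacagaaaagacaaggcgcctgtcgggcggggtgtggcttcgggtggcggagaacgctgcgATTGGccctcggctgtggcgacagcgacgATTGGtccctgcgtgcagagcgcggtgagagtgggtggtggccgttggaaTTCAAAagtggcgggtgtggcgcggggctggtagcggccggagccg
KIF5C: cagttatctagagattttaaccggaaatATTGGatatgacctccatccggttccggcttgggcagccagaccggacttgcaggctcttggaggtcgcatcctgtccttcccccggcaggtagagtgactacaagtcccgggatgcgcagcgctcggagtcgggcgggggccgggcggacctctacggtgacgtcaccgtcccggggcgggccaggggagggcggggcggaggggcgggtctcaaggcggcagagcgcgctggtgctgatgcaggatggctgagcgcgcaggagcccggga
In KIF4A a CCAAT box, read here from the other strand as ATTGG, began 58 bases before the start, and TTTGAA began 34 bases before it. In KIFC1 such boxes began 75 and 46 bases before the start, and TTTGAA on the other strand, read here as TTCAAA, began 4 bases after it. The start of the KIFC1 window lies 287 bases from that of its most abundant listed transcript. For KIF4A, KIF2C and KIF5C this distance is 14, 17 and 23 bases. The KIF2C window held none of these letters. In KIF5C a single CCAAT box, again on the other strand, began 222 bases before the start.

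Among the transport kinesins, the largest rise was that of KIF5C, a neuron-enriched heavy chain of kinesin-1, the motor that carries many vesicles and mitochondria. KIF5C was at 12.2, 11.6 and 11.8 FPKM in LBH589, against 0.0188, 0.0592 and 0.0858 FPKM in DMSO (log2 difference 3.61, SE 0.12, limma adjusted p = 1.69e-05). With these DMSO values, KIF5C had to differ to be listed. KIF5B, the heavy chain made in most cell types, was at 60.7, 63.6 and 61.5 FPKM in LBH589, against 64.9, 77.4 and 81.7 FPKM in DMSO and did not pass (-0.26, 95% interval -0.53 to 0.01, limma adjusted p = 0.101). Without DMSO replicate 1, KIF5B passed at a log2 difference of -0.36 (limma adjusted p = 0.0149). The share of KIF5C in the summed FPKM of KIF5B and KIF5C was 16.7, 15.4 and 16.1% in LBH589 replicates 1 to 3, against 0.029, 0.0764 and 0.105% in DMSO replicates 1 to 3. KIF5B remained the more abundant heavy chain in all 6 libraries.

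Motors of the kinesin-3 family, which carry vesicles and endosomes, did not move together. KIF1A, which carries synaptic vesicle precursors in neurons, was at 4.66, 5.08 and 6.03 FPKM in LBH589, against 1.08, 1.19 and 0.834 FPKM in DMSO (1.62, SE 0.15, limma adjusted p = 3.25e-04). KIF1B, a motor for mitochondria and synaptic vesicle precursors, was at 21.1, 28.0 and 20.4 FPKM in LBH589, against 9.62, 13.6 and 12.9 FPKM in DMSO (0.89, SE 0.18, limma adjusted p = 0.00824). KIF1A and KIF1B thus rose, while KIF1C, a broadly made relative that moves secretory vesicles, fell. Each listed KIF1A transcript had a mean under 0.5 FPKM in 1 group, so each had to differ to be listed. The rise of KIF1A rests on these transcripts. KIF1C was at 9.44, 10.3 and 10.3 FPKM in LBH589, against 22.3, 17.3 and 15.3 FPKM in DMSO (-0.79, limma adjusted p = 0.00663). The 2 KIF13 genes moved in opposite directions. KIF13A, which carries recycling endosomes and, in melanocytes, pigment enzymes to melanosomes, was at 13.7, 14.2 and 11.7 FPKM in LBH589, against 26.8, 26.5 and 26.1 FPKM in DMSO (-0.96, SE 0.11, limma adjusted p = 6.89e-04). KIF13B, which carries scaffold proteins and membrane receptors, was at 15.9, 16.7 and 15.9 FPKM in LBH589, against 4.72, 4.37 and 4.72 FPKM in DMSO (1.61, SE 0.10, limma adjusted p = 7.82e-05). The ratio of KIF13B to KIF13A was 1.23 ± 0.112 in LBH589 and 0.174 ± 0.00842 in DMSO (SD, n = 3 each), so the order of the 2 genes was turned in every LBH589 library. KIF16B, a motor of early endosomes, was at 9.05 ± 0.321 FPKM in LBH589 and 8.89 ± 1.33 FPKM in DMSO and did not pass (0.03, 95% interval -0.29 to 0.36, limma adjusted p = 0.866). Its sign changed without DMSO replicate 1 (-0.08).

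The kinesin-2 motor of intraflagellar transport rose, and the summed transcripts of its accessory subunit were higher in LBH589. KIF3A was at 52.6, 51.8 and 53.7 FPKM in LBH589, against 18.9, 24.6 and 26.7 FPKM in DMSO (1.15, SE 0.14, limma adjusted p = 9.996e-04). Its partner KIF3B was at 14.8, 15.02 and 13.8 FPKM in LBH589, against 8.28, 8.35 and 8.81 FPKM in DMSO (0.71, SE 0.10, limma adjusted p = 0.00147). KIFAP3, the third subunit, averaged 26.3 ± 1.39 FPKM in LBH589 and 10.4 ± 0.380 FPKM in DMSO (1.26, limma adjusted p = 1.48e-04), with no overlap between the groups in any of the 3 genes. The most abundant transcript of KIFAP3, taken alone, gave a log2 difference of -0.87 (limma adjusted p = 0.0563). The other KIFAP3 transcripts were at or near 0 in DMSO and had to differ to be listed. The rise and the call of KIFAP3 rest on these other transcripts. KIF3C, an alternative partner of KIF3A, was at 3.46, 3.26 and 4.20 FPKM in LBH589, against 4.51, 2.74 and 3.96 FPKM in DMSO and did not pass (-0.02, 95% interval -0.47 to 0.44, limma adjusted p = 0.953). Its sign changed with equal sums (0.12).

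The kinesin-4 relatives KIF21A and KIF21B, which slow microtubule growth and can move cargo, moved in opposite directions. KIF21A, the most abundant kinesin in DMSO, was at 24.7, 27.6 and 25.5 FPKM in LBH589, against 79.1, 101 and 91.0 FPKM in DMSO (-1.76, SE 0.12, limma adjusted p = 1.06e-04). KIF21B, known from neurons and immune cells, was at 2.71, 4.54 and 3.88 FPKM in LBH589, against 1.599, 1.52 and 1.61 FPKM in DMSO (0.85, SE 0.18, limma adjusted p = 0.00893). The rise of KIF21B rests on transcripts with a DMSO mean under 0.5 FPKM, which had to differ to be listed. Its remaining listed transcript, ENST00000461742.6_2, had a mean of 0.51 FPKM in LBH589 and 1.19 FPKM in DMSO. The fall of KIF21A bears on the transport sum: without it the other 14 transport kinesins summed to 232 ± 6.62 FPKM in LBH589 and 190.3 ± 8.76 FPKM in DMSO (SD, n = 3 each). Of the minus-end-directed motors, KIFC2, described in mouse neurons, was at 3.37, 4.25 and 5.51 FPKM in LBH589, against 2.04, 2.20 and 1.19 FPKM in DMSO (0.94, limma adjusted p = 0.0147). Exons of KIFC2 overlap FOXH1, a gene without a listed transcript, on the other strand. KIFC3, which acts at cell junctions and on the Golgi, was at 2.01, 1.76 and 2.03 FPKM in LBH589, against 8.27, 4.62 and 3.10 FPKM in DMSO (-1.03, SE 0.30, limma adjusted p = 0.0314). The call of KIFC3 ended without DMSO replicate 2 (limma adjusted p = 0.0688) and without LBH589 replicate 1, 2 or 3 (0.0744, 0.0902 and 0.0784), with equal sums (0.053) and with its most abundant transcript alone (0.124).

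**Figure D3:**
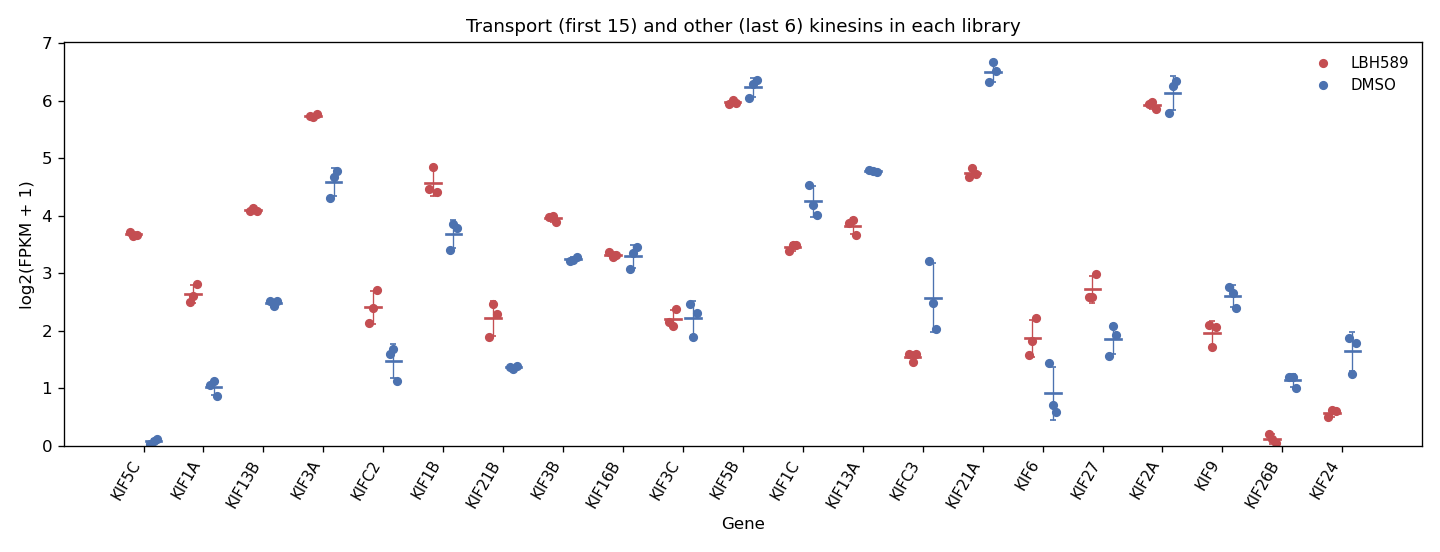
Levels of the 15 transport kinesins (left) and 6 other kinesins (right) as log2(FPKM + 1) (y axis), each set ordered along the x axis from the largest rise to the largest fall; points are libraries, LBH589 left of DMSO, short lines are means and error bars SD (n = 3). KIF5C lies near 0 in DMSO, while KIF21A is the highest kinesin in DMSO and is lower in LBH589.

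The 6 other kinesins were led by KIF2A, which shortens microtubules at spindle poles and in neurons. KIF2A was at 61.0, 62.1 and 56.8 FPKM in LBH589, against 54.7, 75.4 and 80.5 FPKM in DMSO and did not pass (-0.20, 95% interval -0.59 to 0.18, limma adjusted p = 0.334). When DMSO replicate 1 was left out, it passed (-0.37, limma adjusted p = 0.0178). Its groups overlapped, because DMSO replicate 1 lay below all LBH589 libraries. KIF24, a centriolar kinesin that restrains cilium formation, was at 0.408, 0.535 and 0.514 FPKM in LBH589, against 2.67, 1.39 and 2.47 FPKM in DMSO (-1.07, limma adjusted p = 0.00480). KIF26B, a kinesin-like protein of embryonic development, was at 0.158, 0.08002 and 0.0315 FPKM in LBH589, against 1.29, 1.30 and 1.01 FPKM in DMSO (-1.01, limma adjusted p = 9.02e-04). KIF24 and KIF26B thus fell, but both were low in either group and had to differ to be listed. KIF27, a relative of the ciliary protein KIF7, was at 5.01, 5.03 and 6.96 FPKM in LBH589, against 1.97, 3.25 and 2.80 FPKM in DMSO (0.86, limma adjusted p = 0.0125). KIF6, found in motile cilia, was at 1.98, 2.53 and 3.66 FPKM in LBH589, against 1.71, 0.646 and 0.497 FPKM in DMSO (0.96, limma adjusted p = 0.0330). KIF9, also of motile cilia, was at 3.29, 2.29 and 3.19 FPKM in LBH589, against 5.78, 5.28 and 4.25 FPKM in DMSO (-0.64, limma adjusted p = 0.0224). Exons of KIF9 overlap, on the other strand, KLHL18, which had a listed transcript, and KIF9-AS1, which had none. The call of KIF6 ended without DMSO replicate 2 or 3 or LBH589 replicate 2 or 3 (limma adjusted p = 0.0965, 0.0885, 0.0789 and 0.0977), which leaves 1 rise in this class. With the most abundant transcript of each gene alone, KIF6 and KIF27 did not pass (limma adjusted p = 0.133 and 0.0557). The call of KIF9 ended without DMSO replicate 1 or 2 or LBH589 replicate 2 (limma adjusted p = 0.0527, 0.0675 and 0.0691), and with equal sums (0.0572). KIF1BP, the binding protein that shares the naming pattern, was at 15.02, 14.1 and 11.6 FPKM in LBH589, against 14.7, 13.8 and 16.4 FPKM in DMSO and did not pass (-0.14, limma adjusted p = 0.431).

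**Figure D4:**
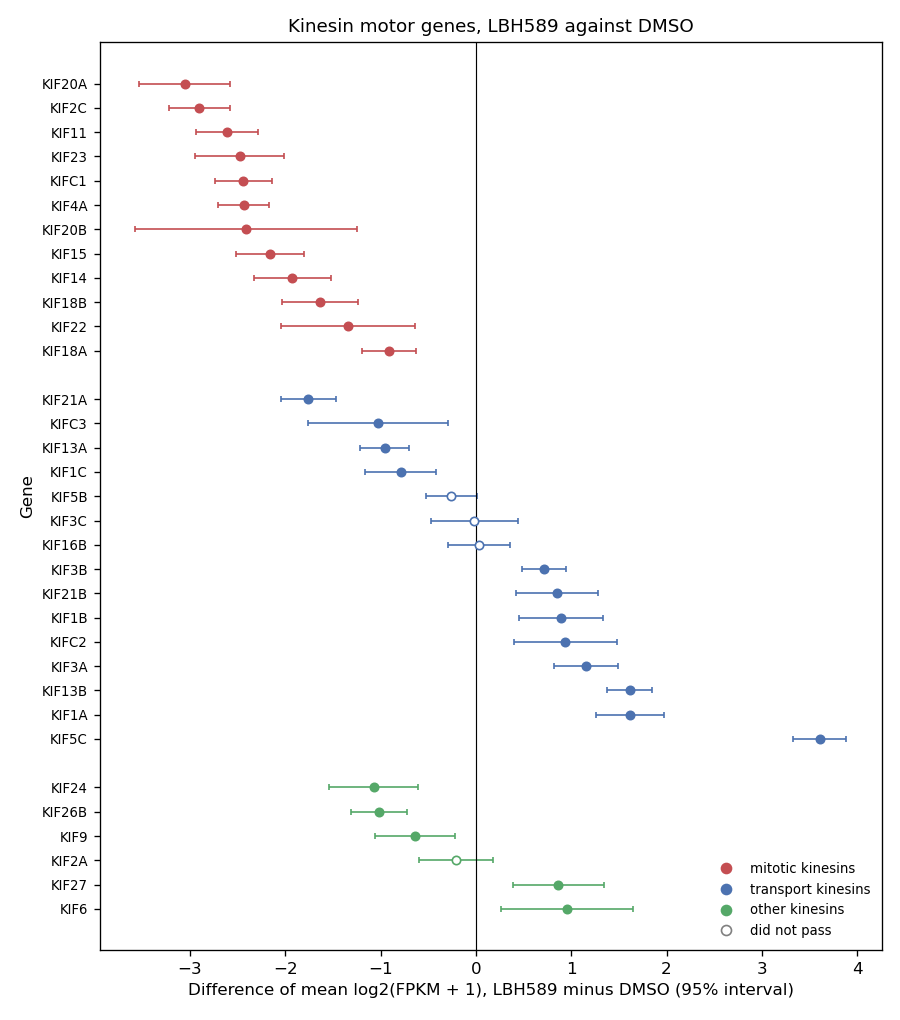
Difference of mean log2(FPKM + 1), LBH589 minus DMSO (x axis), for each of the 33 kinesin motor genes (y axis), with 95% intervals; colours mark the classes and open circles the 4 genes that did not pass. The mitotic kinesins lie between -3.06 and -0.91, and the transport kinesins between -1.76 and 3.61.

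Over the 33 motor genes, 10 rose, 19 fell and 4 did not pass, where 27.2% of all tested genes rose and 21.6% fell. The groups did not overlap in 30 of the 33, as in 59.5% of all tested genes. These counts include KIF5C, KIF2C, KIF18B, KIF24 and KIF26B, which had to differ to be listed. They also include KIF1A and KIF21B, whose rises rest on transcripts that had to differ to be listed. The order of levels changed with these differences. In LBH589 the 3 highest kinesins were KIF5B, KIF2A and KIF3A, at 62.0 ± 1.51, 59.99 ± 2.78 and 52.7 ± 0.954 FPKM, of which KIF5B and KIF2A lay within their spread of each other. In DMSO the 3 highest were KIF21A, KIF5B and KIF2A, at 90.5 ± 11.1, 74.7 ± 8.72 and 70.2 ± 13.7 FPKM, where KIF5B and KIF2A again lay within their spread. KIF23 ranked 14 in LBH589 and 4 in DMSO, and KIF11 ranked 24 in LBH589 and 8 in DMSO. KIF5C ranked 9 in LBH589 and 33, the last, in DMSO. With a pseudocount of 0.1 the differences of low genes were larger: 6.3 for KIF5C, -4.02 for KIF18B, -2.83 for KIF26B, -1.91 for KIF24 and 1.56 for KIF6 on the log2 scale.

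The 33 motor genes had 85 listed transcripts, and 13 of the genes had 1. At the level of single transcripts 72 were tested over all 26943 transcripts, and 8 rose and 18 fell, beside 8.56% of all tested transcripts that rose and 7.32% that fell. Without DMSO replicate 2 or LBH589 replicate 2, falls numbered 11 in each case. Mitotic kinesins had 12 called falls and 0 rises among 22 tested transcripts, and transport kinesins 8 rises and 4 falls among 38. No gene had transcripts called in opposite directions. In some genes the split between transcripts varied among replicates far more than the sum. The KIF14 transcript ENST00000614960.4_1 was listed at 0, 0 and 2.36 FPKM in LBH589 replicates 1 to 3 and ENST00000367350.4_1 at 1.71, 2.13 and 0.0104 FPKM, while their sum lay between 1.71 and 2.37 FPKM. Single transcripts with such a split are therefore uncertain.

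In some transport kinesins the listed transcripts differed in how they moved. Transcripts named here that are not the most abundant of their gene were chosen after their values were seen. A transcript with a group mean under 0.5 FPKM had to differ to be listed, as with ENST00000332129.6_1 of KIF21B and the 2 KIF1A transcripts below. In KIF1A, ENST00000320389.11_1 was listed at 4.33, 4.55 and 5.27 FPKM in LBH589, against 0, 0.0273 and 0 FPKM in DMSO (log2 difference 2.50, limma adjusted p = 0.00124). ENST00000498729.7_2 of the same gene was listed at 0.00378, 0 and 0.0271 FPKM in LBH589, against 1.00, 1.08 and 0.834 FPKM in DMSO, and its mean over the 6 libraries was below the level tested. The transcript that held 94.4% of KIF1A FPKM in DMSO thus held 0.196% in LBH589. Listing itself required some difference, though not one of this size. The first transcript had a DMSO mean of 0.00911 FPKM and the second an LBH589 mean of 0.0103 FPKM. In KIF1B the most abundant listed transcript, ENST00000377093.8_1, was at 6.91, 6.10 and 4.89 FPKM in LBH589, against 5.71, 8.87 and 7.59 FPKM in DMSO and did not pass (-0.26, limma adjusted p = 0.489). A longer one, ENST00000377086.5_1 of 10669 bases, was at 6.67, 8.94 and 6.49 FPKM in LBH589, against 2.73, 2.44 and 2.69 FPKM in DMSO (1.20, limma adjusted p = 0.0123). ENST00000263934.10_1 was at 7.48, 0.893 and 8.07 FPKM in LBH589, against 1.19, 0 and 2.61 FPKM in DMSO and did not pass (limma adjusted p = 0.307). ENST00000635499.1_2 was at 10.8 FPKM in LBH589 replicate 2 and near 0 in the other 5 libraries (limma adjusted p = 0.499). The rise of KIF1B thus lay outside its most abundant transcript, and its split among the others varied between LBH589 libraries. In KIF21B, ENST00000332129.6_1 rose, with 2.40, 1.34 and 1.99 FPKM in LBH589 against 0.291, 0.647 and 0.212 FPKM in DMSO (limma adjusted p = 0.0334), and ENST00000461742.6_2 was at 0.308, 0.662 and 0.560 FPKM in LBH589, against 1.28, 0.874 and 1.40 FPKM in DMSO (limma adjusted p = 0.140). In KIF21A 3 transcripts fell, led by ENST00000541463.6_3, which was at 18.2, 19.9 and 17.2 FPKM in LBH589, against 46.5, 65.3 and 46.8 FPKM in DMSO (-1.45, limma adjusted p = 0.00474).

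**Figure D5:**
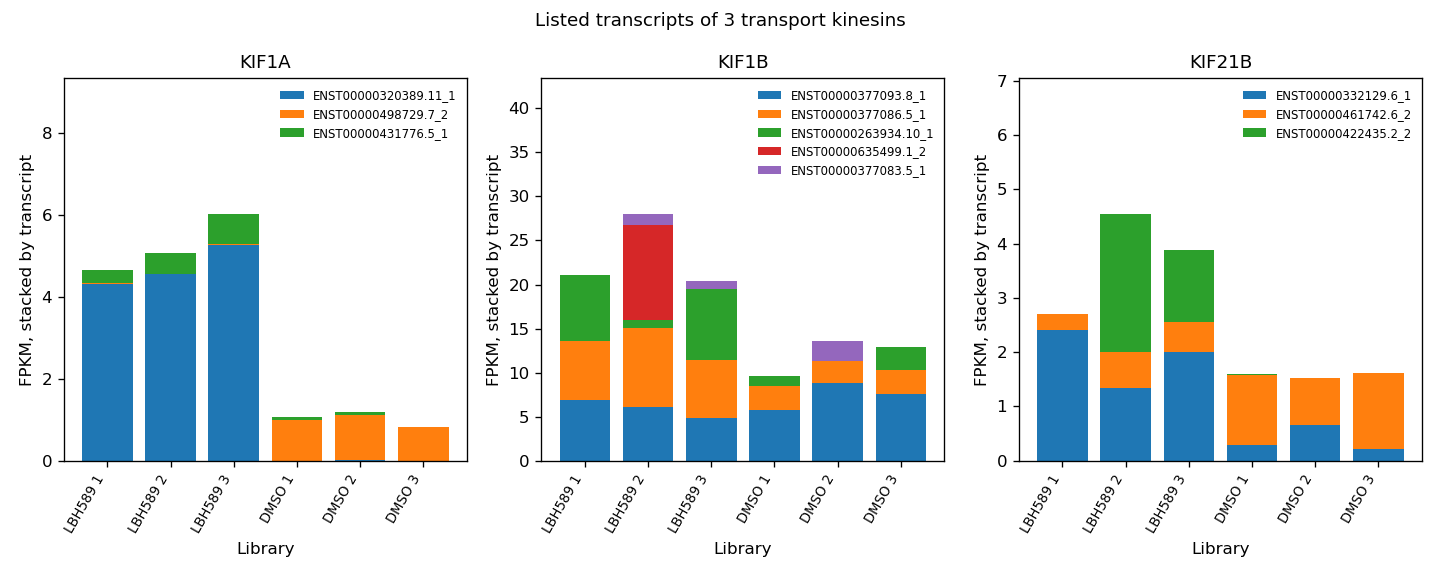
FPKM of the listed transcripts of KIF1A, KIF1B and KIF21B (y axis, stacked) in each library (x axis, LBH589 replicates 1 to 3, then DMSO replicates 1 to 3). In KIF1A one transcript makes up 89.7% of the level in LBH589 and another 94.4% in DMSO, and both had to differ between the groups to be listed.

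Light chains and adaptors, which couple kinesins to cargo, mostly rose or did not pass. Of 23 tested, 12 rose, 2 fell and 9 did not pass, where 27.2% of all tested genes rose and 21.6% fell, and the median log2 difference was 0.57. The rise of KLC3, named after its values were seen, carries no weight. Its DMSO mean was 0.384 FPKM, so it had to differ to be listed. The rise of KIFAP3 rests on transcripts that had to differ to be listed. KLC1, a light chain of kinesin-1, averaged 70.6 ± 2.22 FPKM in LBH589 and 44.0 ± 1.46 FPKM in DMSO (SD, n = 3 each; 0.67, limma adjusted p = 9.94e-04), and its most abundant transcript alone gave a larger difference, 2.24, that did not pass (0.072). KLC4, another light chain, averaged 4.91 ± 0.615 FPKM in LBH589 and 0.621 ± 0.456 FPKM in DMSO (1.91, limma adjusted p = 0.00134). MAPK8IP1, a scaffold of the JNK pathway that binds light chains, averaged 8.55 ± 2.14 FPKM in LBH589 and 0.658 ± 0.300 FPKM in DMSO (2.52, limma adjusted p = 2.96e-04). The falls numbered 0 with equal sums or without any 1 LBH589 library, and 1 without DMSO replicate 1 or 3.

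Dynein, the motor that walks towards the minus ends of microtubules, and its activator dynactin had called members in both directions, in shares near those of all tested genes. Of 20 tested subunits, 5 rose, 4 fell and 11 did not pass, where 27.2% of all tested genes rose and 21.6% fell. With equal sums 8 rose and 3 fell. DYNLL2, a light chain, averaged 67.0 ± 2.25 FPKM in LBH589 and 16.9 ± 1.14 FPKM in DMSO (1.93, limma adjusted p = 3.85e-05). DYNC1I1, an intermediate chain known mainly from neurons, averaged 15.1 ± 1.99 FPKM in LBH589 and 3.80 ± 0.354 FPKM in DMSO (1.74, limma adjusted p = 1.78e-04). DYNC2LI1, a light intermediate chain of the ciliary dynein, averaged 18.1 ± 1.18 FPKM in LBH589 and 7.86 ± 1.09 FPKM in DMSO (1.12, limma adjusted p = 8.46e-04). DYNLRB1, a light chain, fell, with 95.3 ± 6.52 FPKM in LBH589 and 154 ± 3.24 FPKM in DMSO (-0.69, limma adjusted p = 0.00149).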

How the data were processed

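RNA sequencing of 6 samples, 3 with LBH589 and 3 with DMSO, was deposited by the authors as FPKM per transcript, per the file headers. The submitters' processing notes list Bowtie 0.12.2 and the build hg19 but not what each was used for. Which tool and annotation gave the FPKM is not given in the sources used here. Of 30624 listed transcripts, 30504 (99.6%) were named through GENCODE release 29, and FPKM was summed per gene. That release uses a later build than the files. Its coordinates served only to find exons shared between genes and to choose the promoter window nearest to a transcript start, both within that build. FPKM times length showed no step shared by the low values of all libraries, so the depth is unknown and no counting interval is given. The largest pile of equal low values held 3 to 4 values in LBH589 libraries and 8 to 16 in DMSO libraries.

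Genes and, in a fit of their own, transcripts were kept where the mean of the 6 libraries reached 0.5 FPKM. They were compared by limma (version 3.58.1, with statmod 1.5.0, in R 4.3.3) on log2(FPKM + 1), with a trend, robust moderation and a single term for treatment, over the whole table. Differences on this scale understate the change of low genes. The fit was also tested on simulated data with 200 changed genes, drawn from those with a DMSO mean of at least 3 on the log2 scale. It recovered 7.46% of changes of 0.5 on that scale, 58.2% of changes of 1 and 81.8% of changes of 2. Of the unchanged genes, 5 were called. A gene that did not pass may therefore still differ. No 2 libraries shared more than 1 equal value above 0. The members, classes and partner lists were chosen with earlier results of these data known. Every member was described whatever its values, and of each partner list up to 4 genes with the smallest adjusted p were named. The genes that fell among the adaptors are counted but not reported here by name. Alternatives were other pseudocounts, filters, scalings and moderation, one transcript per gene instead of the sum, a replicate block, and fits with a library left out.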

Additional observations from a re-analysis of the deposited data

How the results depend on the processing

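Of 516 recomputed values of the 33 motor genes, 486 kept their sign and their side of the threshold, and 23 genes did so under every alternative run. The sign changed in 9 values, of KIF1B, KIF3C and KIF16B. When each gene was represented by its most abundant transcript, KIF1B had a log2 difference of -0.26 (limma adjusted p = 0.378) and KIFAP3 one of -0.87 (0.0563), in both cases because other transcripts carry the rise; other kinesins then gave 0 rises, and adaptors 5 rises and 1 fall. The call of KIF27 also ended (0.0557). At a mean of at least 5 FPKM fewer genes were tested: 5 of 10 transport kinesins rose, the 1 other kinesin left gave 0 rises and 0 falls, 6 of 14 adaptors rose, 5 of 25 kinesin transcripts rose, and 1844 of all 6866 genes rose. With equal sums, adaptors gave 0 falls and dynein genes 8 rises. With 1 library left out, other kinesins gave 1 to 2 rises, transport kinesins 3 to 5 falls, adaptors 0 to 2 falls and kinesin transcripts 11 to 17 falls, against 12 mitotic falls throughout.

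No pairing by replicate number was seen: deviations from the group means of same-numbered libraries correlated at -0.104, 0.0215 and -0.035, and no library correlated best with its own number. So few libraries cannot exclude pairing, and the labels do not say what the numbers mean. With the replicate block, other kinesins gave 1 rise, adaptors 0 falls, and kinesin transcripts 4 rises and 7 falls, and KIF6, KIF9 and KIFC2 did not pass (limma adjusted p = 0.087, 0.0564 and 0.0536). Depth is unknown, so no limit on values near 0 can be given.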

Other observations

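The transcripts of KIFAP3, the accessory subunit of kinesin-2, were looked at after its values were seen. ENST00000361580.6_1 was listed at 3.93, 8.24 and 4.23 FPKM in LBH589 replicates 1 to 3, against 10.2, 10.8 and 10.1 FPKM in DMSO replicates 1 to 3. ENST00000367765.5_1 was listed at 14.1, 2.11 and 4.96 FPKM in LBH589, against 0 FPKM in all DMSO libraries (limma adjusted p = 0.0336). ENST00000367767.5_1 was listed at 6.93, 0 and 18.4 FPKM in LBH589 and ENST00000538366.5_1 at 0.105, 15.5 and 0.227 FPKM, against at most 0.0113 FPKM in DMSO. The 3 transcripts at or near 0 in DMSO had to differ to be listed. Each of these 3 transcripts was high in a different LBH589 library, while the sum of the gene lay between 25.1 and 27.8 FPKM in LBH589 and between 10.1 and 10.8 FPKM in DMSO.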
